A study of Mus musculus with 6 samples.

Results

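Molecular chaperones of the cytosol and of the endoplasmic reticulum (ER), with their enzymes and co-chaperones, were compared between cultured mouse tendon stem/progenitor cells sorted as Vldlr-positive and cells sorted as Vldlr-negative. The members were all genes of the deposited table whose symbol belongs to the heat shock protein families Hspa, Hspb, Hspd, Hspe, Hsph and Hsp90, the J proteins (Dnaja, Dnajb and Dnajc), the cytosolic chaperonin TRiC (Cct2 to Cct8 and Tcp1), the FK506-binding proteins (Fkbp), or a set of named ER genes (P4hb, Pdia3 to Pdia6, Calr, Canx, Hyou1, Sdf2l1, Creld1, Creld2 and Ppib). This choice by name gave 104 of 15711 genes. By the known location of their products, 53 were assigned to the cytosol (nuclear and endosomal members included), 26 to the ER (mostly its lumen, with membrane proteins such as calnexin and Dnajc1), 9 to mitochondria and 6 to a group of other membrane J proteins. This last group was kept out of the ER count, whichever membrane holds its members. The other 10 were 6 genes placed in no compartment group, among them Fkbp8 of the FK506-binding family, and 4 pseudogenes.

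Both groups came from tendon stem/progenitor cells of 1 genotype, Col1α1-Cre with a YFP reporter, in which the type I collagen promoter drives the recombinase. Each sample's genotype label has its own number after Col1α, and all were taken as the same genotype. Cells positive for the Col1α1 reporter were separated by flow cytometry with Vldlr, the very low density lipoprotein receptor, into Vldlr-positive and Vldlr-negative populations, both kept in medium with 20% fetal bovine serum at 5% CO2, and each population was sequenced as 3 libraries by bulk RNA-seq. The labels give neither the age, sex or number of animals nor whether the libraries of a group came from separate cultures. The p-values therefore describe the spread among these libraries alone, and that spread may be technical. In bulk RNA, fewer cells of a type and less RNA per cell cannot be told apart.

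Chaperones bind unfolded chains and let them fold, and most work in ATP-driven cycles in which J proteins deliver clients to Hsp70 and exchange factors release them. The cytosol and the ER hold separate sets: heat shock factor 1 drives many cytosolic genes, while the unfolded protein response, through XBP1 and ATF6, drives many ER genes. Secreted collagen, the main product of tendon fibroblasts, is folded in the ER, where disulfide isomerases join its chains and prolyl isomerases turn its proline bonds.

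The binding sites of these pathways are short and were searched for in the promoters, from 250 bases before to 50 bases after each gene start, that RefSeq (GRCm38.p6) gives for 85 of the 104 members. The ER stress response element, read as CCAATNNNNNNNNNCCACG on either strand, was present in 7 of 23 ER members (30.4%), in 0 of 45 cytosolic members and in 37 of 27025 genes with a promoter (0.137%). The shorter ER stress response element II, ATTGGNCCACG, was found in 1 ER member, Dnajb11 (4.35%), and in 12 of all genes (0.0444%). A heat shock element of 3 alternating units, GAANNTTCNNGAA, was found in 2 of 45 cytosolic members, Dnajb6 and Hsph1 (4.44%), in 0 of 23 ER members, in 2 of 6 mitochondrial members and in 179 of all genes (0.662%). No member's promoter held both kinds of element. A match in letters is a description and no evidence of binding, and the lack of one is no evidence that a site is absent.

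The matches of the ER members are printed from the 5′ end in the direction of the motif, with 10 bases on each side. No cytosolic member held either ER element, and most ER members held none. Capitals mark the fixed letters of each ER stress response element, and the coordinates (GRCm38.p6) are those of the element.
Hspa5, chr2:34772025-34772043: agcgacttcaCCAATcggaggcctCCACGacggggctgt
Pdia6, chr12:17266491-17266509: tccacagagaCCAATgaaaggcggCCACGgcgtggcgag
Calr, chr8:84847075-84847093: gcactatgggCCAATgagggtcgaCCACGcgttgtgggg
Creld2, chr15:88819520-88819538: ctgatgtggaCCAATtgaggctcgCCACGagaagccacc
Canx, chr11:50325800-50325818: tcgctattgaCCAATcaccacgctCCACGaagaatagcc
Dnajc3, chr14:118937827-118937845: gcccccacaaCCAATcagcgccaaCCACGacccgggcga
Hsp90b1, chr10:86705533-86705551: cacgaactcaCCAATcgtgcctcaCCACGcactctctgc
Hsp90b1, chr10:86705638-86705656: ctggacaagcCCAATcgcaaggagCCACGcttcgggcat
Dnajb11, chr16:22857852-22857862: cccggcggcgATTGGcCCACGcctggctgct
The heat shock element is shown, with the whole match in capitals, for Hsph1 and for the start region that Hspd1 and Hspe1 share.
Hsph1, chr5:149636288-149636300: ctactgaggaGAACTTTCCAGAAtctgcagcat
Hspe1, chr1:55088064-55088076: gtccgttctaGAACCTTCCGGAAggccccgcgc

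To show where the element lies, the whole promoter of Hspa5, the gene of BiP, is given with its whole element in capitals. The element began 65 bases before the RefSeq start.
Hspa5 promoter, chr2:34771840-34772139, + strand: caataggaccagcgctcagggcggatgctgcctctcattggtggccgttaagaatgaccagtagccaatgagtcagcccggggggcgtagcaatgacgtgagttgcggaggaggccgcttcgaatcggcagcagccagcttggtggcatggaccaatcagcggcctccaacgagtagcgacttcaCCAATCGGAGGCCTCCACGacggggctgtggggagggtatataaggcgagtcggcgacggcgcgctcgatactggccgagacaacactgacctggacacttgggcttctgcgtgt

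The libraries were of even depth, with 17660241 to 17719560 worked-out reads in Vldlr-positive and 17280540 to 17348846 in Vldlr-negative libraries. Vldlr-positive replicate 1 stood apart, with a chi-square per gene of 14.6 and 12.5 against the other two, which differed by 2.35. Vldlr was not used as a check of the labels, because its 3 values in Vldlr-negative libraries were the only ones that were not whole reads, and the groups are named as labelled. Both type I collagen genes were high in both groups, and Col1a1 was at 3028 ± 119 RPKM in Vldlr-positive and 1789 ± 86.2 RPKM in Vldlr-negative libraries (SD, n = 3 each). Markers of other cell types moved with the groups. All 12 tested macrophage markers were lower in Vldlr-positive libraries, and the 13 markers summed to 29.3 to 37.5 RPKM there, against 587 to 712 RPKM in Vldlr-negative libraries, with Tyrobp at 0 in all Vldlr-positive libraries. Of 7 tested Schwann cell markers 6 were higher and 1 was lower, and the list of 9 summed to 113 to 122 RPKM in Vldlr-positive and 20.6 to 22.4 RPKM in Vldlr-negative libraries. Endothelial markers gave the same counts, 6 higher and 1 lower of 7 tested, and the list of 8 summed to 17.9 to 18.9 RPKM in Vldlr-positive and 4.01 to 4.84 RPKM in Vldlr-negative libraries, where Cdh5 and Tie1 were at 0. The part of these cells in the chaperone differences was not tested. Many of the tested markers passed the filter only through the group where they were higher, so that their calls carry no weight.

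Differences are log2 fold changes of RPKM + 1 (RPKM being reads per kilobase of exon relative to library size), Vldlr-positive minus Vldlr-negative, tested with limma. Genes entered the test if 3 or more libraries reached 1 RPKM, and an adjusted p under 0.05 (Benjamini-Hochberg over all 12116 genes tested) was a call. Folds are ratios of mean RPKM. Of all genes tested, 3602 (29.7%) were called higher and 3167 (26.1%) lower, with a median log2 fold change of 0.02. These counts rest on the composition factors in the deposited values: with libraries scaled by total reads, 1875 genes were higher and 5547 lower, and the median of all genes moved by -0.17. It was then -0.15, and counts and medians given below with total-read scaling are to be read beside these values.

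Most ER chaperones were higher in Vldlr-positive libraries, while the cytosolic ones were spread over higher, lower and not called. Of 26 ER members, all of which passed the filter on low values, 20 were called higher (76.9%), 1 was called lower (3.85%) and 5 were not called, and their median log2 fold change was 0.47, with a range of -0.20 to 1.40. The 6 other membrane J proteins, which may include proteins of the ER membrane, are not in this count. They had 2 higher and 0 lower, with a median of 0.06. Of 53 cytosolic members 49 passed the filter, of which 20 were called higher (40.8%), 9 lower (18.4%) and 20 were not called. Their median was 0.10, near the 0.02 of all genes, with a range of -0.96 to 1.98. The medians differed by 0.36, which is a description with no test. Hspa1a, Hspa1l, Dnajc6 and Cct6b were not tested, and Hspa4l and Fkbp5 passed the filter only through Vldlr-negative libraries, where they were higher, so that their calls as lower carry no weight. Without these genes, 20 of 47 cytosolic members were higher (42.6%) and 7 lower (14.9%), with a median of 0.12, and 7 were higher and 13 lower with total-read scaling.

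Among all genes tested, 1295 (10.7%) were called with a rise of 1.5-fold or more and 1477 (12.2%) with a fall of that size. At that size 8 ER members (30.8%) were higher and 0 lower, against 3 cytosolic members higher and 3 lower (6.12% each), or 2 lower without Hspa4l. In all, 21 ER members were higher in every Vldlr-positive than in every Vldlr-negative library, 1 was lower in every one, and the groups overlapped for 4. Of the 49 tested cytosolic members, 22 were higher in every library and 10 lower in every one, Hspa4l and Fkbp5 among the latter. Over all genes tested, 33.5% were higher in every library and 29.5% lower in every one. With total-read scaling 15 ER members were higher and 4 lower, and 7 cytosolic members were higher and 15 lower. Relative to the median of all genes, the ER median was then 0.43 and the cytosolic median 0.08 higher, compared with 0.45 and 0.09 as deposited. Without Vldlr-positive replicate 1, the library that stood apart, 20 ER members were higher and 2 lower, and 22 cytosolic members were higher and 11 lower.

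**Figure D1:**
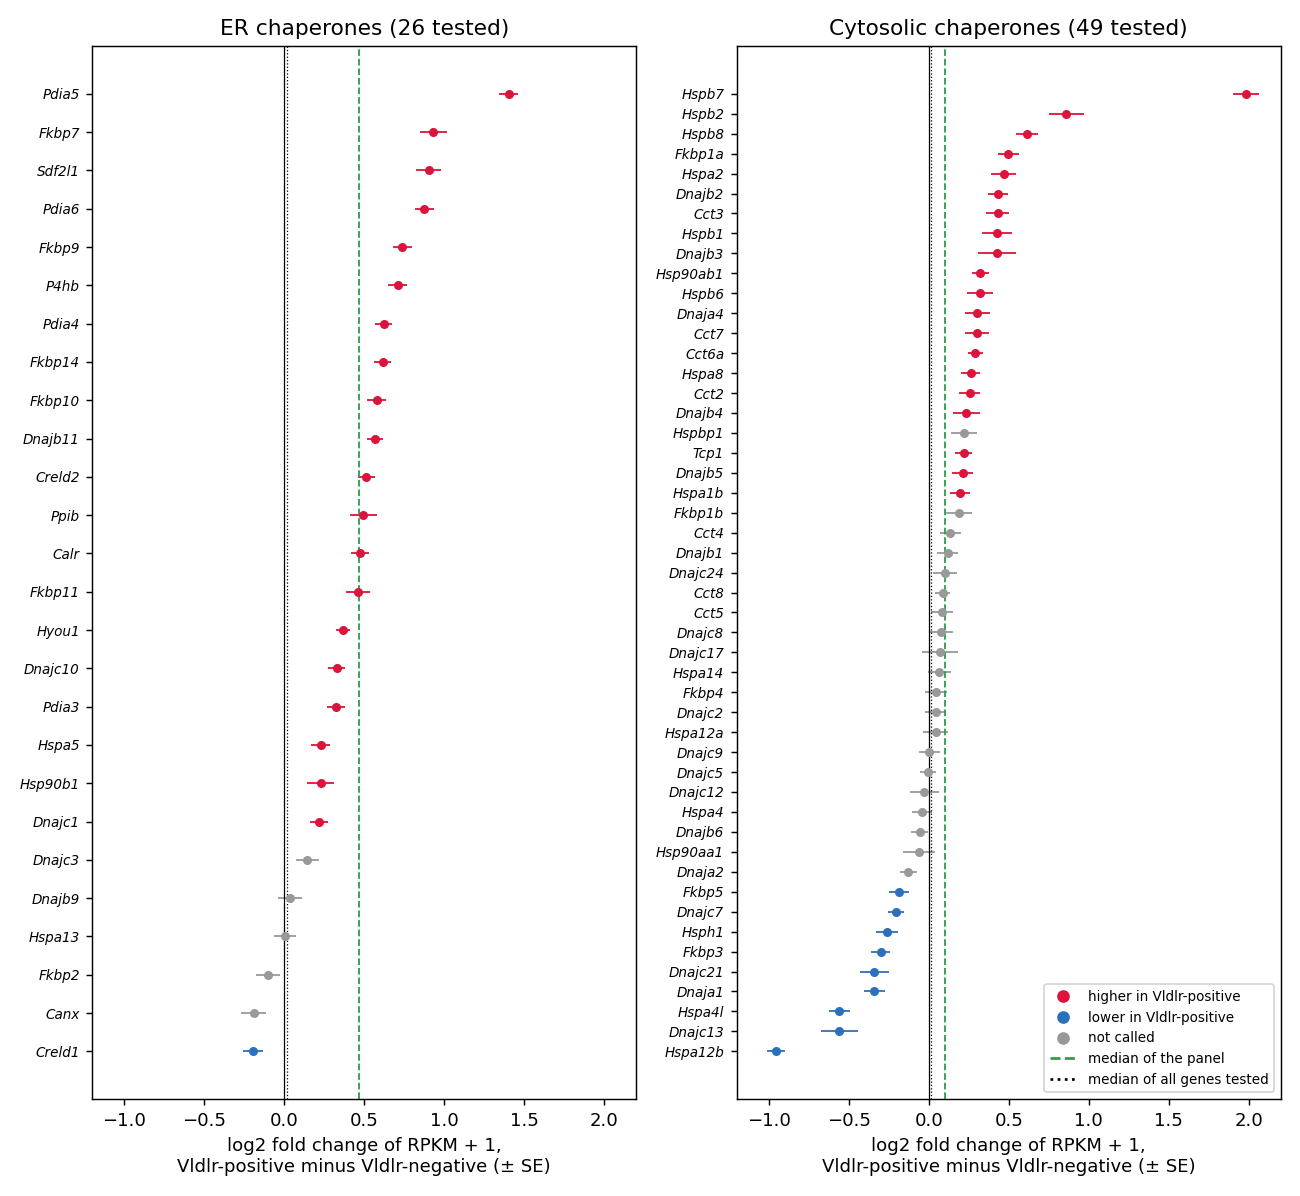
Log2 fold change of RPKM + 1, Vldlr-positive minus Vldlr-negative, for each tested ER member (left) and cytosolic member (right), with bars for the standard error (3 libraries a group) and colours for the limma call. The ER median (dashed) is at 0.47 and the cytosolic one at 0.10, beside 0.02 for all genes (dotted); under total-read scaling the cytosolic median is negative, at -0.07.

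Both summed levels were higher in every Vldlr-positive library than in any Vldlr-negative one. The same held for the sum over all genes of the table, so that a higher sum is not particular to chaperones. All genes summed to 279650, 289130 and 288740 RPKM in Vldlr-positive libraries and to 244630, 242700 and 253610 RPKM in Vldlr-negative ones. ER members summed to 3661, 3705 and 3699 RPKM in the Vldlr-positive libraries, against 2617, 2655 and 2697 RPKM in the Vldlr-negative ones. Cytosolic members summed to 1706, 1753 and 1735 RPKM in Vldlr-positive libraries and to 1452, 1464 and 1531 RPKM in Vldlr-negative ones. The ratio of ER to cytosolic RPKM, which does not depend on the scaling of a library, was 2.146, 2.114 and 2.132 in Vldlr-positive libraries, against 1.803, 1.813 and 1.762 in Vldlr-negative libraries.

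The ratio was thus higher in each Vldlr-positive library than in any Vldlr-negative one. Its mean was 2.13 ± 0.0161 in Vldlr-positive and 1.79 ± 0.0271 in Vldlr-negative libraries (SD, n = 3 each), 1.19-fold higher, with an exact two-sided permutation p of 0.1, the smallest that 3 against 3 allows. As a share of all worked-out reads, ER members took 1.13% in each of the Vldlr-positive libraries and 0.950%, 0.962% and 0.976% in Vldlr-negative libraries. Cytosolic members took 0.576%, 0.587% and 0.580% in Vldlr-positive and 0.580%, 0.585% and 0.608% in Vldlr-negative libraries. On this scale the ER share did not overlap between the groups, while the cytosolic share did.

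**Figure D2:**
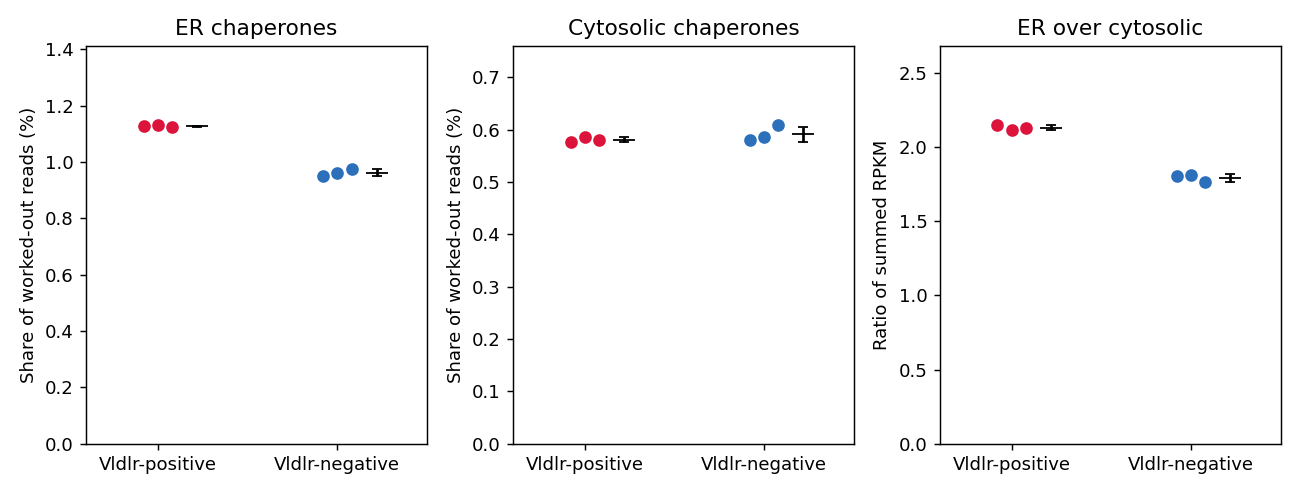
Share of worked-out reads taken by ER and by cytosolic members (percent, left and middle) and the ratio of their summed RPKM (right), with a point for each library and bars for the mean ± SD of 3 libraries. The ER share is 1.17-fold higher in Vldlr-positive libraries and the ratio 1.19-fold higher, while the cytosolic shares overlap.

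The disulfide isomerases, which form and rearrange disulfide bonds in the ER, were called higher in 5 of 5 cases (median log2 fold change 0.71). Pdia5 (chr16:35397312-35490873, GRCm38) was at 22.5, 24.9 and 23.5 RPKM in the Vldlr-positive libraries, against 8.04, 8.82 and 8.08 RPKM in the Vldlr-negative ones. Its 3 Vldlr-positive values all lay far above the Vldlr-negative ones, 2.84-fold higher on average (limma log2 fold change 1.40, standard error 0.06, adjusted p = 4.06e-07), the largest log2 fold change among the ER members. P4hb (chr11:120560298-120573253), protein disulfide isomerase itself and the beta subunit of collagen prolyl 4-hydroxylase, was at 488, 528 and 519.9 RPKM in Vldlr-positive and 309, 313 and 317 RPKM in Vldlr-negative libraries. The groups did not overlap, and the mean was 512 ± 20.7 RPKM in Vldlr-positive and 313 ± 4.25 RPKM in Vldlr-negative libraries (SD, n = 3 each), 1.64-fold higher (limma log2 fold change 0.71, standard error 0.06, adjusted p = 1.75e-05).

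Pdia6 (chr12:17266545-17284770), a partner of BiP, was at 141, 146 and 150.2 RPKM in the Vldlr-positive libraries, against 76.4, 77.8 and 82.8 RPKM in the Vldlr-negative ones. All Vldlr-positive values were the higher ones, and the gene rose 1.84-fold (limma log2 fold change 0.88, standard error 0.06, adjusted p = 4.73e-06). Pdia4 was at 182, 182 and 192 RPKM in Vldlr-positive and 118, 120.2 and 122 RPKM in Vldlr-negative libraries, again with no overlap, and rose 1.54-fold (limma log2 fold change 0.62, standard error 0.05, adjusted p = 2.32e-05). Pdia3, which folds glycoproteins together with calreticulin and calnexin, was at 452, 445 and 422 RPKM in Vldlr-positive cells, compared with 346, 346 and 360.0 RPKM in Vldlr-negative cells. Its groups were separate but closer, 1.25-fold higher (limma log2 fold change 0.32, standard error 0.06, adjusted p = 0.00178), and with total-read scaling it was not called (adjusted p = 0.101), while the other four were.

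The ER prolyl isomerases were called higher in 6 of 7 cases (median 0.58), under total-read scaling too. Fkbp9, the most abundant of them, was at 323, 356 and 344 RPKM in the Vldlr-positive libraries, against 203, 205 and 203 RPKM in the Vldlr-negative ones. The Vldlr-negative values were close to each other, and the Vldlr-positive mean was 1.67-fold above theirs (limma log2 fold change 0.74, standard error 0.06, adjusted p = 1.44e-05). Fkbp7 (chr2:76663044-76673116), a binder of BiP, was at 134, 149 and 159 RPKM in Vldlr-positive and 72.1, 74.4 and 84.2 RPKM in Vldlr-negative libraries, 1.92-fold higher (limma log2 fold change 0.93, standard error 0.08, adjusted p = 3.27e-05). The values spread more within both groups than those of Fkbp9, without overlap.

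Fkbp14, which acts on procollagen, was at 47.8, 46.3 and 48.9 RPKM in the Vldlr-positive libraries, against 29.6, 30.4 and 32.4 RPKM in the Vldlr-negative ones, 1.55-fold higher (limma log2 fold change 0.61, standard error 0.05, adjusted p = 3.12e-05). Fkbp10, also called FKBP65, a procollagen chaperone whose loss causes brittle bones in humans, was at 117, 129.7 and 126 RPKM in Vldlr-positive cells, compared with 82.6, 82.0 and 83.7 RPKM in Vldlr-negative cells, 1.499-fold higher and so just under the 1.5-fold limit (limma log2 fold change 0.58, standard error 0.06, adjusted p = 6.63e-05). Both had all Vldlr-positive values above all Vldlr-negative ones. Ppib, cyclophilin B, which works in the collagen prolyl 3-hydroxylase complex, rose 1.42-fold (limma adjusted p = 0.00139), and 30.8% of its 50-base windows are shared with other genes, so that its value is uncertain. Fkbp11 rose 1.41-fold (adjusted p = 0.00101, limma). Fkbp2 was the exception, at 14.9, 17.6 and 16.6 RPKM in Vldlr-positive and 16.6, 17.2 and 19.0 RPKM in Vldlr-negative libraries, with overlapping groups and no call (limma adjusted p = 0.29), but a lower call with total-read scaling (0.0112).

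**Figure D3:**
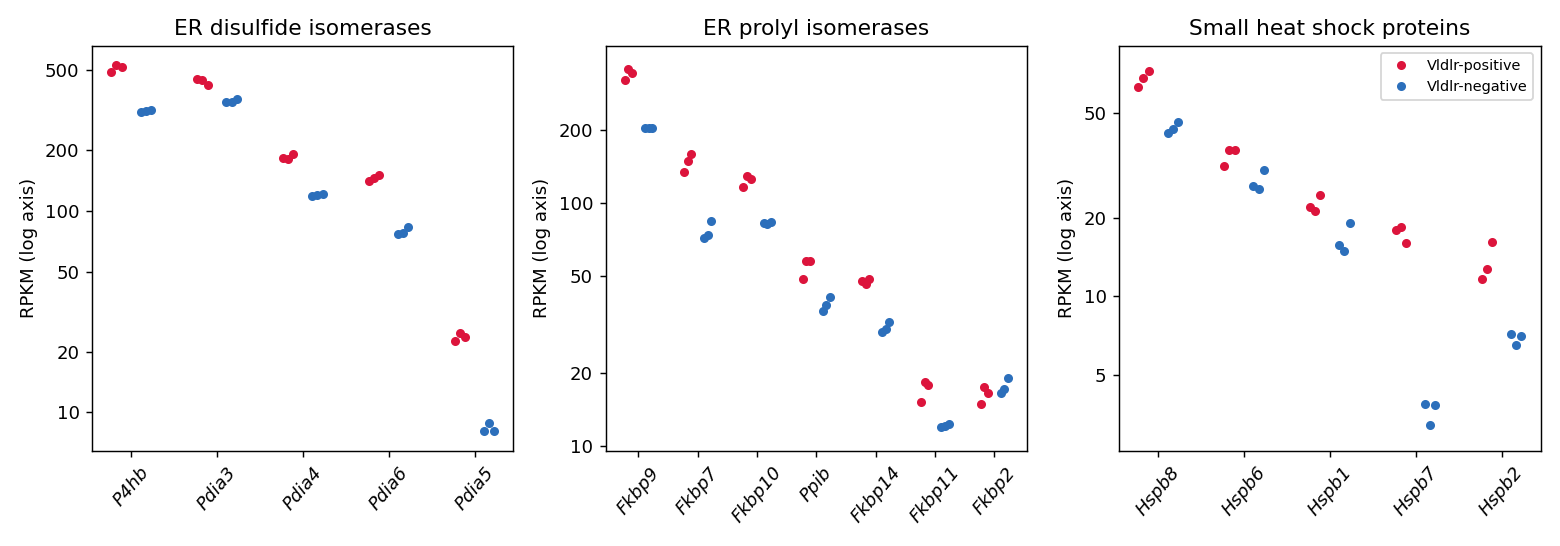
RPKM of each library on a log axis for the ER disulfide isomerases (left), the ER prolyl isomerases (middle) and the cytosolic small heat shock proteins (right). In each pair of columns the 3 Vldlr-positive libraries stand left of the 3 Vldlr-negative ones, and of the 17 genes only Fkbp2 has overlapping groups.

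Of the Hsp70 and Hsp90 chaperones of the ER, 3 of 4 were called higher, with a median of 0.23; with total-read scaling 1, Hyou1, was higher and 1, Hspa13, lower, with a median of 0.03. Hspa5 (chr2:34771970-34777547), which encodes BiP, the Hsp70 of the ER, which also holds the stress sensors inactive, was at 335, 307 and 313 RPKM in the Vldlr-positive libraries, against 266, 274 and 275 RPKM in the Vldlr-negative ones. The lowest Vldlr-positive value was above the highest Vldlr-negative one, and the mean was 1.17-fold higher (limma log2 fold change 0.23, standard error 0.06, adjusted p = 0.0113). This call was lost without Vldlr-negative replicate 1 (adjusted p = 0.0619) and with total-read scaling (0.716). Hsp90b1, GRP94, was at 267, 218 and 222 RPKM in Vldlr-positive and 203, 197 and 201 RPKM in Vldlr-negative libraries, 1.18-fold higher (limma log2 fold change 0.23, standard error 0.08, adjusted p = 0.0454).

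The high value of Hsp90b1 was that of Vldlr-positive replicate 1, the library that stood apart. The Hsp90b1 call was lost without Vldlr-positive replicate 3 and without any 1 Vldlr-negative replicate (adjusted p = 0.0566 to 0.127), with upper-quartile scaling (0.0772) and with total-read scaling (0.797). Hyou1, the exchange factor of BiP, was at 24.3, 24.5 and 25.0 RPKM in Vldlr-positive cells, compared with 18.9, 18.7 and 18.9 RPKM in Vldlr-negative cells, 1.31-fold higher (limma log2 fold change 0.37, standard error 0.05, adjusted p = 0.000248), with tight and separate groups. Hspa13, an Hsp70 with no substrate-binding domain, was at 16.2, 13.4 and 14.3 RPKM in the Vldlr-positive libraries, against 14.5, 15.0 and 14.2 RPKM in the Vldlr-negative ones, with overlapping groups and no call (adjusted p = 0.968, limma).

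Among the J proteins of the ER, which hand clients to BiP, 3 of 5 were called higher (median 0.21), but with total-read scaling 1 was higher and the median was 0.04. Relative to all genes, their median was 0.20 higher as deposited and 0.19 higher with total-read scaling. Dnajb11 was at 54.8, 57.4 and 55.1 RPKM in the Vldlr-positive libraries, against 37.4, 36.4 and 38.2 RPKM in the Vldlr-negative ones, 1.49-fold higher (limma log2 fold change 0.57, standard error 0.05, adjusted p = 3e-05), with the groups well apart. Dnajc10, a reductase that clears misfolded proteins, rose 1.26-fold (limma adjusted p = 0.00125) and Dnajc1, a ribosome-associated J protein of the ER membrane, rose 1.19-fold (adjusted p = 0.012), but neither was called with total-read scaling (adjusted p = 0.0642 and 0.578). Dnajb9 and Dnajc3, both known targets of the unfolded protein response, had log2 fold changes of 0.04 and 0.14 and were not called (limma adjusted p = 0.709 and 0.12).

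The ER lectins, which retain glycoproteins until they are folded, had 1 of 2 called higher. Calr (chr8:84841850-84846934), soluble calreticulin and the most abundant member at a mean of 562 RPKM over all 6 libraries, was at 627, 665 and 669 RPKM in the Vldlr-positive libraries, against 466, 471 and 473 RPKM in the Vldlr-negative ones. All Vldlr-positive values were higher, and the gene rose 1.39-fold (limma log2 fold change 0.47, standard error 0.06, adjusted p = 0.000197). Canx, membrane-bound calnexin, was at 151, 129 and 129 RPKM in Vldlr-positive and 149, 164 and 155 RPKM in Vldlr-negative libraries. Its groups overlapped in 1 library, that of Vldlr-positive replicate 1, and it was not called (limma log2 fold change -0.19, standard error 0.08, adjusted p = 0.0641), but it was called lower under 4 of 14 alternatives. These were total-read scaling (log2 fold change -0.39, adjusted p = 0.00247), upper-quartile scaling (-0.23, 0.0364), voom (-0.19, 0.0406) and leaving out Vldlr-positive replicate 1 (-0.27, 0.00306).

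Sdf2l1 (chr16:17130138-17132383), which forms a complex with Dnajb11, was at 22.7, 27.5 and 27.3 RPKM in the Vldlr-positive libraries, against 13.0, 13.9 and 13.0 RPKM in the Vldlr-negative ones. It was 1.94-fold higher (limma log2 fold change 0.90, standard error 0.08, adjusted p = 2.62e-05), with no overlap. Creld2, a secreted ER stress protein, was at 41.7, 42.5 and 45.2 RPKM in Vldlr-positive and 30.8, 28.7 and 30.2 RPKM in Vldlr-negative libraries, 1.44-fold higher (limma log2 fold change 0.51, standard error 0.06, adjusted p = 9.96e-05). Its relative Creld1 was the only ER member called lower, at 6.58, 7.09 and 7.70 RPKM in Vldlr-positive cells, compared with 8.11, 8.23 and 8.55 RPKM in Vldlr-negative cells, 1.17-fold lower (limma log2 fold change -0.20, standard error 0.06, adjusted p = 0.0307). That call was lost without Vldlr-positive replicate 2 and without any 1 Vldlr-negative replicate (adjusted p = 0.0694 to 0.0916).

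Of the 7 ER members with an ER stress response element, 5 were higher and 2, Canx and Dnajc3, were not called, with a median log2 fold change of 0.23, between -0.19 for Canx and 0.88 for Pdia6. The 16 ER members whose promoter window held none had 13 higher, 1 lower and 2 not called, with a median of 0.53. Dnajb11, with element II, is among these 16. No test was made of this difference.

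In the cytosol, the small heat shock proteins, holdases that keep unfolding proteins soluble, were called higher in 5 of 5 cases (median 0.61). Hspb7 (chr4:141420779-141425311), known from heart muscle, was at 17.9, 18.4 and 16.0 RPKM in the Vldlr-positive libraries, against 3.90, 3.22 and 3.86 RPKM in the Vldlr-negative ones. It had the largest rise of all 98 tested members, 4.76-fold (limma log2 fold change 1.98, standard error 0.08, adjusted p = 2.76e-07), and its groups were far apart. Hspb8, the partner of the co-chaperone BAG3, was at 63.2, 68.3 and 72.3 RPKM in Vldlr-positive and 42.1, 43.4 and 46.4 RPKM in Vldlr-negative libraries, 1.54-fold higher (limma log2 fold change 0.61, standard error 0.07, adjusted p = 0.000112). Hspb2 was at 11.7, 12.7 and 16.2 RPKM in Vldlr-positive cells, compared with 7.21, 6.50 and 7.08 RPKM in Vldlr-negative cells, 1.95-fold higher (limma log2 fold change 0.86, standard error 0.11, adjusted p = 0.000248), but 30.2% of its exon bases overlap Cryab, so that the reads of these genes cannot be told apart where the use of strand is not given.

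Hspb1 rose 1.36-fold (limma adjusted p = 0.00529) and Hspb6 1.26-fold (adjusted p = 0.0101). Neither was called with total-read scaling (adjusted p = 0.0585 and 0.216), and 50.1% of the windows of Hspb1 are shared with other genes. Several small heat shock proteins are abundant in muscle. Of 6 tested smooth muscle and pericyte markers 3 were higher and 2 lower, and the list of 7 summed to 704 to 801 RPKM in Vldlr-positive and 213 to 249 RPKM in Vldlr-negative libraries, mostly Acta2, at 668, 679.6 and 760.3 RPKM in Vldlr-positive and 199.8, 186 and 219 RPKM in Vldlr-negative libraries. The skeletal muscle markers in the table, Des and Acta1, summed to 1.03 to 1.47 RPKM in Vldlr-positive and 1.15 to 1.54 RPKM in Vldlr-negative libraries. Of the smooth muscle and pericyte markers, Rgs5 passed the filter only through Vldlr-positive and Myh11 only through Vldlr-negative libraries, so that their calls carry no weight. The part of smooth muscle markers in the rise of the small heat shock genes was not tested.

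The cytosolic Hsp70 genes other than the atypical Hspa12a and Hspa12b had 3 of 4 tested members higher (median 0.23). There were 2 with upper-quartile scaling (median 0.20) and 1 with total-read scaling (median 0.06). The tested members were Hspa8, Hspa2, Hspa1b and Hspa14, of which Hspa14 was not called (limma log2 fold change 0.07, adjusted p = 0.464). Hspa8, the constitutive Hsc70 and by far the most abundant of them, was at 103, 107 and 111 RPKM in the Vldlr-positive libraries, against 85.4, 88.9 and 92.7 RPKM in the Vldlr-negative ones, 1.20-fold higher (limma log2 fold change 0.26, standard error 0.06, adjusted p = 0.00568). Hspa2 was at 9.98, 11.8 and 9.62 RPKM in Vldlr-positive and 7.03, 7.01 and 7.74 RPKM in Vldlr-negative libraries, 1.44-fold higher (limma log2 fold change 0.47, standard error 0.08, adjusted p = 0.00149). Both had separate groups, but Hspa8 was not called with total-read scaling (adjusted p = 0.39), and 39.4% of its windows are shared with other genes.

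The stress-inducible Hsp70 pair was low in both groups. Hspa1b was at 2.39, 2.24 and 2.24 RPKM in the Vldlr-positive libraries, against 1.72, 1.99 and 1.90 RPKM in the Vldlr-negative ones, 1.22-fold higher (limma log2 fold change 0.20, standard error 0.07, adjusted p = 0.0328), and lost its call under 9 of 14 alternatives (adjusted p of 0.0521 to 0.449 in those). Hspa1a was at 0.451, 0.406 and 0.792 RPKM in Vldlr-positive cells, compared with 0.669, 0.471 and 0.452 RPKM in Vldlr-negative cells, under the limit for testing. Since 62.3% of the windows of Hspa1b and 66.3% of those of Hspa1a match other genes, each other above all, their values are uncertain.

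The atypical Hsp70 gene Hspa12b (chr2:131127280-131146321), known from endothelium, was at 2.18, 2.37 and 2.29 RPKM in the Vldlr-positive libraries, against 5.49, 5.41 and 5.19 RPKM in the Vldlr-negative ones. Every Vldlr-positive value was under every Vldlr-negative one, 2.35-fold lower (limma log2 fold change -0.96, standard error 0.06, adjusted p = 2.81e-06), the largest fall among the members on the log2 scale. Among the 7 tested endothelial markers, Tek, a vascular receptor kinase, also had lower values in Vldlr-positive libraries. It was at 0.426, 0.499 and 0.563 RPKM there and at 3.30, 3.88 and 3.38 RPKM in Vldlr-negative libraries (7.10-fold). The other 6 had higher values in Vldlr-positive libraries. Each of the 7 passed the filter only through the group where it was higher, so that its call carries no weight. The part of endothelial cells in the fall of Hspa12b was not tested. Its relative Hspa12a was not called (limma adjusted p = 0.67).

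The exchange factors of cytosolic Hsp70, which are Hspbp1 and the Hsp110 genes Hspa4, Hspa4l and Hsph1, had 0 of 4 higher and 2 lower (median -0.15). Without Hspa4l, which passed the filter only through Vldlr-negative libraries, 1 of 3 was lower and the median was -0.04. Hspa4l was at 0.856, 0.736 and 0.705 RPKM in the Vldlr-positive libraries, against 1.58, 1.68 and 1.54 RPKM in the Vldlr-negative ones, 2.09-fold lower, which is given as a description. Hsph1 was at 24.8, 21.8 and 21.2 RPKM in Vldlr-positive and 26.3, 28.7 and 26.7 RPKM in Vldlr-negative libraries, 1.20-fold lower (limma log2 fold change -0.26, standard error 0.07, adjusted p = 0.014), but its call was lost without Vldlr-positive replicate 2 or 3 and without Vldlr-negative replicate 2 (adjusted p = 0.0509 to 0.0608). The groups of both genes were separate. Hspa4, the most abundant, was at 56.4, 51.0 and 49.4 RPKM in Vldlr-positive cells, compared with 53.3, 54.9 and 53.0 RPKM in Vldlr-negative cells with overlapping groups (adjusted p = 0.588, limma, and 0.00914 as lower with total-read scaling), and Hspbp1 had a log2 fold change of 0.22 and missed the threshold (adjusted p = 0.0503).

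Of the paralogous Hsp90 genes of the cytosol, 1 of 2 was called. Hsp90ab1 (chr17:45567775-45573271), the constitutive form and the most abundant cytosolic member, was at 481, 503 and 481 RPKM in the Vldlr-positive libraries, against 385, 392 and 394 RPKM in the Vldlr-negative ones, 1.25-fold higher (limma log2 fold change 0.32, standard error 0.05, adjusted p = 0.00144). Its groups were separate, while the inducible form Hsp90aa1, at 47.1, 36.8 and 35.5 RPKM in Vldlr-positive and 41.9, 40.6 and 41.1 RPKM in Vldlr-negative libraries, overlapped between groups and was not called (adjusted p = 0.637, limma). With total-read scaling Hsp90ab1 was not called (adjusted p = 0.0957) and Hsp90aa1 was called lower (adjusted p = 0.0492), and the median of the pair, 0.13 as deposited, was -0.07. For Hsp90aa1, 47.5% of windows are shared with other genes.

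The J proteins of the cytosol, the largest family, had 5 higher (26.3%), 4 lower (21.1%) and 10 not called of 19 tested. These shares were near the 29.7% and 26.1% of all genes tested. Their median of 0.04 became -0.13 with total-read scaling, and was 0.03 above that of all genes in both scalings. Dnajb2, a neuron-enriched J protein, was at 13.7, 16.0 and 15.3 RPKM in the Vldlr-positive libraries, against 10.6, 11.2 and 10.7 RPKM in the Vldlr-negative ones, 1.39-fold higher (limma log2 fold change 0.43, standard error 0.06, adjusted p = 0.00071). Dnaja1 was at 8.41, 7.62 and 7.27 RPKM in Vldlr-positive and 9.97, 9.73 and 10.6 RPKM in Vldlr-negative libraries, 1.30-fold lower (limma log2 fold change -0.34, standard error 0.07, adjusted p = 0.00278), and Dnajc7 was 1.16-fold lower (adjusted p = 0.00912). Dnajc13, which acts on endosomes, was at 9.36, 7.13 and 7.05 RPKM in Vldlr-positive cells, compared with 12.8, 12.9 and 10.4 RPKM in Vldlr-negative cells, 1.53-fold lower (limma log2 fold change -0.56, standard error 0.12, adjusted p = 0.00405). These genes had separate groups, Dnajb2 higher and the others lower. For Dnaja1, 20.55% of windows are shared with other genes.

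Dnaja4, Dnajb3, Dnajb4 and Dnajb5 were also called higher and Dnajc21 lower. The value of Dnaja4 is uncertain, since 42.7% of its windows are shared with other genes. With total-read scaling none of Dnaja4, Dnajb3, Dnajb4 and Dnajb5 was called, and leaving out 1 library ended the call of Dnajb3, Dnajb4 or Dnajb5 in 3, 4 and 4 of 6 cases (adjusted p of 0.0554 to 0.0711 for Dnajb3, 0.0772 to 0.123 for Dnajb4 and 0.0667 to 0.0852 for Dnajb5). The most abundant member, Dnaja2, was at 63.7, 63.9 and 60.5 RPKM in the Vldlr-positive libraries, against 66.9, 68.5 and 70.1 RPKM in the Vldlr-negative ones, and missed the threshold (limma adjusted p = 0.0692), but was called lower with total-read scaling (0.000995). The heat shock target Dnajb1 was at 16.9, 18.1 and 19.8 RPKM in Vldlr-positive and 16.6, 16.2 and 17.4 RPKM in Vldlr-negative libraries, with overlapping groups (limma adjusted p = 0.157).

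TRiC, a ring of 8 subunits that folds actin and tubulin, had 5 of 8 tested genes higher, 0 lower and a median of 0.24. Cct6a was at 55.0, 55.6 and 54.7 RPKM in the Vldlr-positive libraries, against 43.7, 45.0 and 45.9 RPKM in the Vldlr-negative ones, 1.23-fold higher (limma log2 fold change 0.29, standard error 0.05, adjusted p = 0.00133). Cct3 was at 32.0, 33.4 and 34.7 RPKM in Vldlr-positive and 23.1, 23.3 and 27.3 RPKM in Vldlr-negative libraries, 1.36-fold higher (limma log2 fold change 0.43, standard error 0.07, adjusted p = 0.00145). Their groups did not overlap. Of the windows of Cct6a and Tcp1, 15.4% and 13.9% are shared with other genes.

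Cct7 and Cct2 rose 1.24-fold and 1.19-fold (limma adjusted p = 0.00876 and 0.00983), and Tcp1 rose 1.17-fold (adjusted p = 0.0105), a call lost without Vldlr-positive replicate 3 or Vldlr-negative replicate 1 (adjusted p = 0.0502 and 0.0569). Cct4, Cct5 and Cct8 had log2 fold changes of 0.13, 0.08 and 0.09 and were not called. All 8 tested subunits were thus above 0 in log2 fold change, within a range of 0.08 to 0.43, but with total-read scaling only Cct3 was called and the median was 0.04. Relative to all genes, the TRiC median was 0.22 higher as deposited and 0.19 higher with total-read scaling.

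The cytosolic FK506-binding proteins had 1 higher and 2 lower of 5, with a median of 0.05 that became -0.15 with total-read scaling. Without Fkbp5, which passed the filter only through Vldlr-negative libraries, 1 was higher and 1 lower of 4, with a median of 0.12, and -0.07 with total-read scaling. Fkbp1a, the receptor of the drug FK506, was at 70.5, 79.3 and 78.4 RPKM in the Vldlr-positive libraries, against 52.3, 52.3 and 56.0 RPKM in the Vldlr-negative ones, 1.42-fold higher (limma log2 fold change 0.50, standard error 0.06, adjusted p = 0.000302). The nuclear Fkbp3 was at 4.63, 4.45 and 4.43 RPKM in Vldlr-positive and 5.55, 5.68 and 6.12 RPKM in Vldlr-negative libraries, 1.28-fold lower (limma log2 fold change -0.30, standard error 0.06, adjusted p = 0.00275). Both had separate groups. Fkbp5, an Hsp90 co-chaperone induced by glucocorticoids, was at 0.963, 0.961 and 0.834 RPKM in Vldlr-positive cells, compared with 1.12, 1.24 and 1.18 RPKM in Vldlr-negative cells, 1.29-fold lower, again as a description.

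Mitochondrial members, outside both compartments, had 2 higher and 1 lower of 9, with a median of 0.03, which was -0.13 with total-read scaling. Hspe1, the lid of the mitochondrial chaperonin, was at 34.8, 45.0 and 42.0 RPKM in the Vldlr-positive libraries, against 25.9, 26.3 and 32.8 RPKM in the Vldlr-negative ones, 1.43-fold higher (limma log2 fold change 0.50, standard error 0.12, adjusted p = 0.00674), with 22.8% of its windows shared with other genes. The barrel, Hspd1, which shares the start region and heat shock element printed for Hspe1, was at 40.1, 36.9 and 36.5 RPKM in Vldlr-positive and 36.9, 37.3 and 37.8 RPKM in Vldlr-negative libraries and was not called (adjusted p = 0.809). The groups of Hspe1 were separate and those of Hspd1 overlapped, but Hspd1 was called lower with total-read scaling (adjusted p = 0.0197). For Hspd1, 42.1% of windows are shared with other genes, so that the values of both genes are uncertain.

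Dnajc28, the mitochondrial member called lower, was at 0.904, 1.06 and 0.963 RPKM in Vldlr-positive and 1.40, 1.49 and 1.42 RPKM in Vldlr-negative libraries, 1.47-fold lower. Only 1 of its Vldlr-positive values reached 1 RPKM. It thus met the filter through Vldlr-negative libraries, where it was higher, so that its call carries no weight. Dnajc30 was called higher (adjusted p = 0.0473, limma) although its groups overlapped, and 24.3% of its windows are shared with other genes. Leaving out any 1 library but Vldlr-positive replicate 1 ended this call (adjusted p = 0.0618 to 0.155). Hspa9, mitochondrial Hsp70, was at 108, 106 and 99.8 RPKM in Vldlr-positive cells, compared with 110.0, 114 and 113 RPKM in Vldlr-negative cells and was not called (adjusted p = 0.133), but lower with total-read scaling (0.00175). Of the membrane J proteins, Dnajc25 and Dnajb12 were 1.35-fold and 1.21-fold higher (limma adjusted p = 0.00105 and 0.00199) and the other 4 were not called. Of the genes placed in no compartment group, Fkbp8 was 1.35-fold higher and Dnajc27 1.27-fold lower (limma adjusted p = 0.00338 and 0.0301), the second lost without Vldlr-positive replicate 2 or 3 or Vldlr-negative replicate 1 or 2 (adjusted p = 0.0644 to 0.115). No pseudogene was called in the deposited scaling. With total-read scaling Dnajb12 and Fkbp8 were not called (adjusted p = 0.231 and 0.0542).

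**Figure D4:**
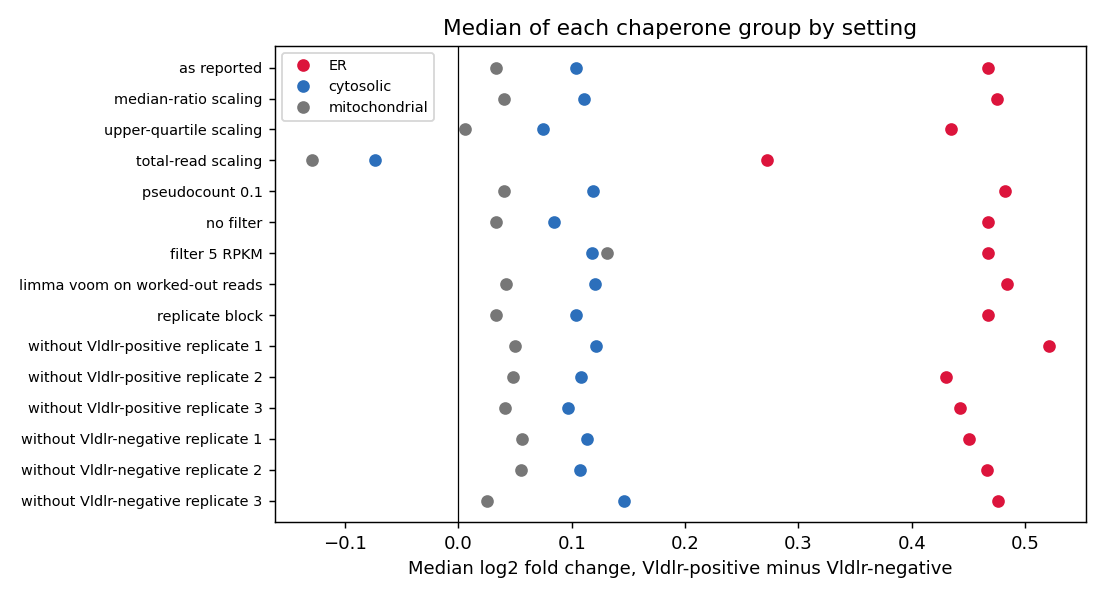
Median log2 fold change (Vldlr-positive minus Vldlr-negative) of the ER, cytosolic and mitochondrial members as reported and under each alternative setting. The ER median lies between 0.27 and 0.52 throughout, while the cytosolic and mitochondrial medians are negative, at -0.07 and -0.13, with total-read scaling.

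The genes around the chaperones were read from the same fit. Of 27 regulators and co-chaperones of the heat shock system 12 were higher and 1 lower, with a median of 0.10 that became -0.09 with total-read scaling (1 higher and 9 lower). Relative to all genes, this median was 0.09 higher as deposited and 0.06 higher with total-read scaling. Bag3, the partner of Hspb8, was at 88.4, 96.3 and 92.1 RPKM in the Vldlr-positive libraries, against 58.8, 60.4 and 61.9 RPKM in the Vldlr-negative ones, 1.53-fold higher (limma log2 fold change 0.60, standard error 0.06, adjusted p = 3.86e-05), with separate groups. Hsbp1, Pdcl3 and Cdc37, which brings kinases to Hsp90, rose 1.30-fold, 1.19-fold and 1.23-fold (limma adjusted p = 0.00439, 0.00447 and 0.00535). The heat shock factors Hsf1 and Hsf2 were not called (adjusted p = 0.319 and 0.121).

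Of 37 genes of the unfolded protein response and ER quality control, 21 were higher and 2, Mbtps2 and Ero1lb, lower, with a median of 0.21. Scaled by total reads, 9 were higher and 9 lower, beside 1875 higher and 5547 lower of all genes. Their median was then 0.18 above that of all genes, against 0.20 as deposited. Txndc5, a further disulfide isomerase, was at 176, 189.6 and 193 RPKM in the Vldlr-positive libraries, against 101, 102 and 104 RPKM in the Vldlr-negative ones, 1.82-fold higher (limma log2 fold change 0.86, standard error 0.06, adjusted p = 5.33e-06). Xbp1, which encodes a main transcription factor of the response, was at 55.9, 59.9 and 58.7 RPKM in Vldlr-positive and 37.5, 36.0 and 38.4 RPKM in Vldlr-negative libraries, 1.56-fold higher (limma log2 fold change 0.63, standard error 0.05, adjusted p = 2.41e-05). In both genes the groups were separate.

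Manf, a secreted ER stress protein, and Os9, a lectin of ER degradation, rose 1.81-fold and 1.51-fold (limma adjusted p = 1.17e-05 and 7.36e-05). Among the sensors and their relatives, Atf6, Ern1 and Eif2ak3 were not called (limma adjusted p = 0.15, 0.111 and 0.563), while Atf6b, a relative of Atf6, rose 1.24-fold (adjusted p = 0.00216). Downstream of Eif2ak3, Chac1, an enzyme that degrades glutathione, rose 1.73-fold (limma adjusted p = 0.000217) and Ppp1r15a, a phosphatase subunit that restores translation, rose 1.24-fold (adjusted p = 0.00419). Atf4, Ddit3 and Trib3 of the same arm were not called (limma adjusted p = 0.073, 0.122 and 0.203). These 9 genes, like Hsf1 and Hsf2, were chosen after their values were seen.

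Of 13 genes of collagen folding and modification in the ER, 11 were higher and 0 lower, with a median of 0.53, and 11 higher and 1 lower with total-read scaling. P4ha3 and P4ha2, catalytic subunits that pair with P4hb in prolyl 4-hydroxylase, rose 6.36-fold and 1.75-fold (limma adjusted p = 1.07e-08 and 4.13e-06). The lysyl hydroxylases Plod3 and Plod1 rose 2.17-fold and 1.76-fold (adjusted p = 1.02e-06 and 1.03e-05). Serpinh1, the collagen chaperone HSP47, was at 868 ± 54.4 RPKM in Vldlr-positive and 634 ± 14.9 RPKM in Vldlr-negative libraries (SD, n = 3 each), 1.37-fold higher (limma log2 fold change 0.45, standard error 0.07, adjusted p = 0.000647). Of 15 tested immediate early genes, which can rise when cells are handled, 5 were higher (33.3%) and 2 lower (13.3%). Among all genes tested, 29.7% were higher and 26.1% lower. The part of immediate early genes in the chaperone differences was not tested.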

How the data were processed

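RNA of 6 mouse libraries (3 Vldlr-positive and 3 Vldlr-negative) was extracted with Trizol and made into libraries with a SMARTER mRNA kit, per the labels' protocols. The deposited table holds 1 value per gene and library; its header names no unit, and RPKM was read from the values. The submitters' processing notes, with no roles, name the mm10 build and 2 programs, bcl2fastq 1.8.4 and Cell Ranger. How reads were aligned and counted, whether strand was used and where reads matching more than 1 gene went is not given in the sources. Genes with close copies or overlapping exons are therefore uncertain: 20 members share 10% or more of their 50-base windows with other genes.

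With merged exon lengths of GENCODE M21 (GRCm38), the RPKM of 15690 of 15691 genes with a length equalled whole reads within 0.01 in all 6 libraries; these worked-out reads gave depth and shares. The deposited RPKM carry composition factors of 0.928 to 1.07. limma 3.58.1 (trend, robust; R 4.3.3) was run on log2(RPKM + 1) with group as the only term, which understates changes of low genes. The same fit was also run on simulated counts, and no result here rests on that run. The number of whole reads limits low genes, and intervals from it would cover counting error only.

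Members, lists and tests were chosen with earlier results of these data known. Per family, up to 4 called members of the lowest adjusted p and the most abundant one were named with values, families under 5 in full; other members named were chosen after their values were seen. Promoters were searched on both strands. Alternatives were 3 scalings, a pseudocount of 0.1, no filter, a filter at 5 RPKM, limma voom on worked-out reads, a replicate block and each library left out. Same-numbered libraries did not deviate together throughout (correlations of 0.30, -0.06 and 0.31), so the numbers were not taken to pair samples.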

Additional observations from a re-analysis of the deposited data

How the results depend on the processing

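Total-read scaling was the setting that moved most values, and its construction shows the cause: it removes the composition factors and moves the median of all genes by -0.17. Under it 1875 genes were higher and 5547 lower, 7 cytosolic members were higher and 15 lower, 4 ER members (Canx, Creld1, Fkbp2 and Hspa13) were lower, and 1 mitochondrial member was higher and 3 lower. The ER median was 0.27, and the cytosolic and mitochondrial medians changed sign, to -0.0736 and -0.129. The sign of 23 members changed, of which 3, Dnajc9, Hspa13 and Hspd1, were called lower there, at -0.18, -0.19 and -0.18 (limma adjusted p = 0.0481, 0.0467 and 0.0197); none of the 23 was called in the deposited scaling. The median difference between ER and cytosol was 0.35 there and 0.36 as deposited. With a filter at 5 RPKM 1800 genes and 0 mitochondrial members were lower, since fewer genes were tested. Upper-quartile scaling and voom each gave 2 lower ER members and 1 higher mitochondrial member and no filter gave 1 higher mitochondrial member; the cause was not tested.

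Leaving out each library in turn gave 2652 to 3855 genes higher and 1981 to 3737 lower. It gave 18 to 20 ER members higher and 0 to 2 lower, 15 to 22 cytosolic members higher and 6 to 11 lower, and 1 to 2 mitochondrial members higher. The lower counts of all genes were 1981 without Vldlr-negative replicate 1 and 2029 without Vldlr-negative replicate 2. The ER median was 0.43 to 0.52, the highest without Vldlr-positive replicate 1, and its distance from the cytosolic median 0.32 to 0.40. The ratio of ER to cytosolic RPKM was 1.18 to 1.20 times higher in Vldlr-positive libraries with each library left out, 1.25 times from geometric means of RPKM + 1, and 1.19 times without the 2 most abundant members of each compartment.

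With the replicate block, which adds the replicate number as a term, 20 ER members were higher and 1 lower, 21 cytosolic members were higher and 8 lower, and 2 mitochondrial members were higher and 1 lower, beside 3738 genes higher and 3315 lower in all. The numbers do not pair the samples. The block moved 4 member calls, 2 lost (Hspa1b and Fkbp5) and 2 gained. With 3 libraries a group, no exact test over samples can go below p = 0.1.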
